A study of Saccharomyces cerevisiae with 12 samples.

Results

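Glycerol is the main osmolyte of budding yeast, and 10 genes that make it, import it, consume it or regulate its production were followed here through chronological aging. They are GPD1, GPD2, GPP1 and GPP2 (synthesis), STL1 (uptake), GUT1 and GUT2 (use), DAK1 and DAK2 (dihydroxyacetone kinases) and HOG1 (the osmotic stress kinase), chosen by name among the 6691 genes of the count table. All 10 passed the filter on low counts in every comparison. RNA sequencing had been done on 12 libraries of S. cerevisiae, 3 each from tra1Q3 and TRA1 cells after 3 days of aging (day 3) and 3 each from tra1Q3 and TRA1 cells before it (day 0). The study asked how the loss of Tra1 function changes gene expression in aged cells. Tra1 is a subunit of the SAGA and NuA4 acetyltransferase complexes, which it links to activators, and the tra1Q3 allele carries arginine to glutamine changes in its PI3K domain. Both strains are W303A derivatives of mating type a, labelled with the alleles ade2-1, can1-100 and trp1-1 beside leu2-3, his3-11 and ura3-1. Each carries a FLAG-tagged allele integrated with selectable markers and a plasmid that expresses YHR100 from the DED1 promoter. The labels describe mid-log growth in synthetic complete medium for all groups, whereas the methods describe saturated cultures diluted into medium without leucine. Each genotype is represented by 1 strain, so that a clonal difference and the allele cannot be told apart.

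Glycerol is made in the cytosol from dihydroxyacetone phosphate, which is reduced to glycerol 3-phosphate with NADH and then dephosphorylated, so the pathway both builds osmolyte and reoxidises NADH. When fermentable sugar runs out, glycerol is taken up, phosphorylated and oxidised back to dihydroxyacetone phosphate at the mitochondrial inner membrane. Hyperosmotic shock activates the Hog1 MAP kinase, which raises transcription of several of the genes described here.

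In aged cells, GPP1, STL1, GPP2 and DAK1 were lower in tra1Q3 than in TRA1. A gene was called where edgeR's quasi-likelihood test gave a Benjamini-Hochberg adjusted p of at most 0.05 and the log2 fold change exceeded 1 in size. At day 3, 4 of the 10 genes were called lower in tra1Q3, where 15.6% of the 6208 genes tested were, and 0 were called higher, against 16.4% of all genes. At day 0, 1 of the 10 (GPP2) was called lower, against 2.76% of the 6126 genes tested, and 0 were called higher, against 3.31%. The median log2 fold change over the 10 genes was -0.63 at day 3 and -0.35 at day 0, and that over all genes tested was -0.02 at day 3 and 0.01 at day 0. The age change of GPP1 and STL1 differed between the genotypes. At day 3 the log2 fold change was -3.85 for GPP1 and -2.70 for STL1. In bulk RNA a smaller fraction of cells that express a gene and less of its RNA in each cell cannot be told apart.

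Totals ran from 20662125 to 28079682 counts per library, so that each of the 10 genes was counted at least 230 times in each library. Replicate 2 of aged TRA1 cells stood apart. The SD of its log2 differences over all genes was 0.505 and 0.555 from its companions, against 0.192 to 0.26 for every other pair of replicates. Replicates 2 and 3 of tra1Q3 cells at day 0 held more transcripts typical of aged cells than replicate 1 did. Over 17 genes at least 100 times higher in aged than in young TRA1 cells, their median level was 1.14% and 1.09% of the aged TRA1 level, against 0.419% in replicate 1. In TRA1 at day 0 it was 0.196% to 0.474%, which was bound to be low because the genes were chosen by their TRA1 levels. Values without replicate 2 of aged TRA1 or replicates 2 and 3 of tra1Q3 at day 0 are given where they bear on a result. The TRA1 reading frame, which both alleles share in the counts, had a log2 fold change of 1.74 at day 3 and 0.54 at day 0 (tra1Q3 over TRA1). Genes specific to a cells (7 of 7 detected) summed to 30934 to 38383 normalized counts in tra1Q3 and 7632 to 8742 in TRA1 at day 3, and to 62762 to 65927 in tra1Q3 and 27753 to 29594 in TRA1 at day 0. Genes specific to alpha cells (4 of 4 detected) summed to 10985 to 13443 in tra1Q3 and 2691 to 3136 in TRA1 at day 3, and to 19629 to 21610 in tra1Q3 and 1156 to 1203 in TRA1 at day 0. None of these 11 genes was at 0 in any group, and the part of cell type in the results below was not tested.

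**Figure D1:**
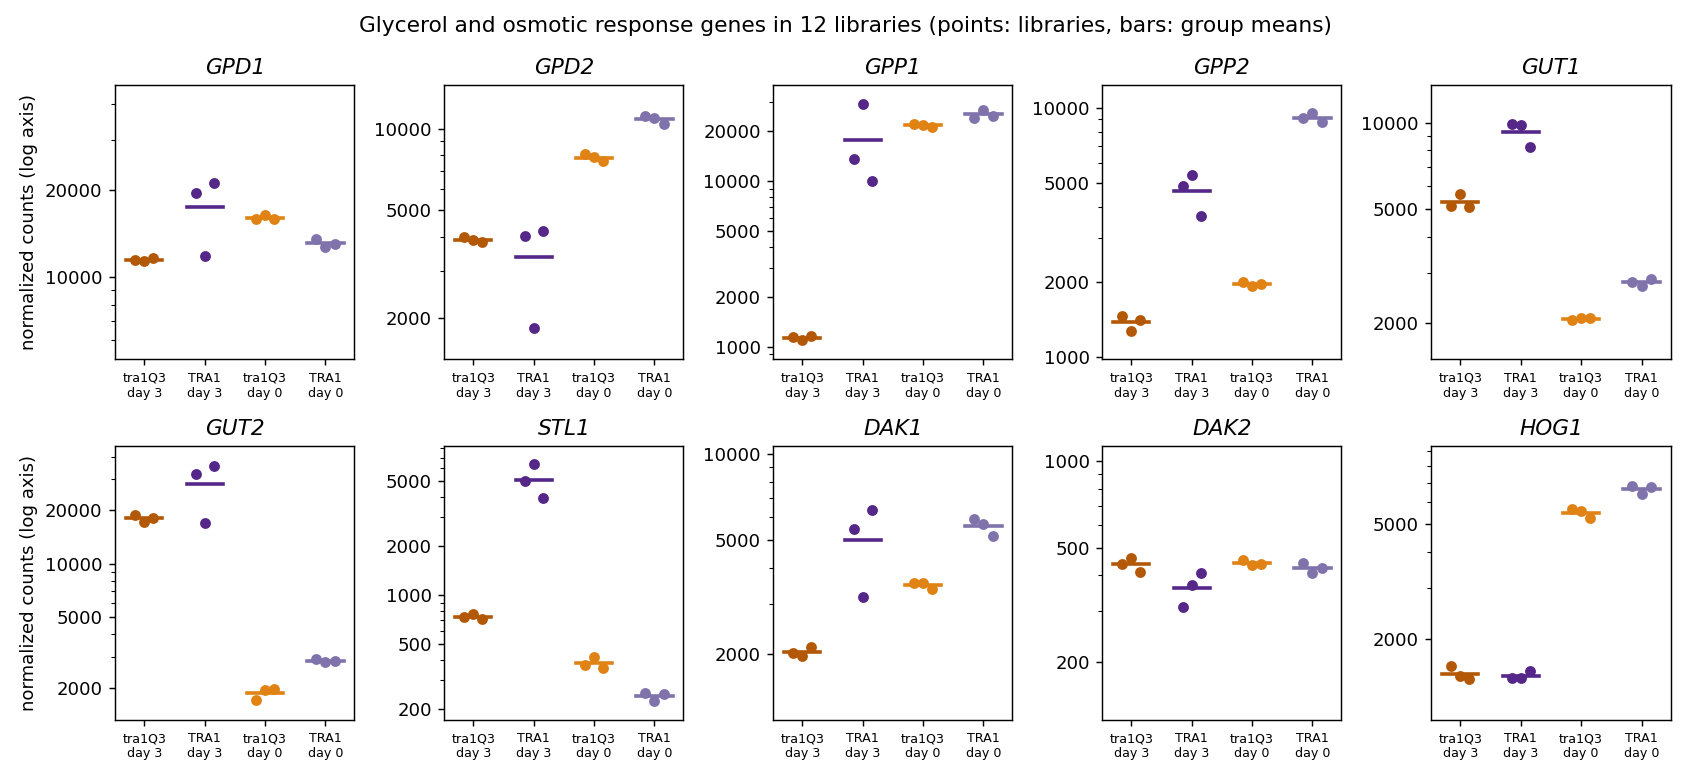
Normalized counts (log axis, its range set for each gene) of the 10 genes in the 12 libraries. Points are libraries and bars are group means, with tra1Q3 and TRA1 at day 3 on the left and at day 0 on the right. The 3 aged tra1Q3 libraries lie at 1098 to 1164 for GPP1 and at 710 to 767 for STL1, below all aged TRA1 libraries.

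The sequences upstream of 4 of these genes are shown because the genes differ in which stress elements they carry. Each run covers positions -300 to -151 from the start codon (the base before the start codon is -1), read from the R64 genome in RefSeq. Capitals mark matches on either strand to CCCCT (the stress response element of Msn2 and Msn4), GGGACAAA (the Hot1 element) or TGACGT (the Sko1 core). In STL1 the Hot1 match at -180 to -173 overlaps the CCCCT at -175 to -171.
STL1, chrIV:1507705-1507854, plus strand: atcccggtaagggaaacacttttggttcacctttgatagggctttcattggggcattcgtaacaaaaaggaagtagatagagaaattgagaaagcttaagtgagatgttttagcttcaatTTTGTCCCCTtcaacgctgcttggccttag
GPD1, chrIV:411525-411674, plus strand: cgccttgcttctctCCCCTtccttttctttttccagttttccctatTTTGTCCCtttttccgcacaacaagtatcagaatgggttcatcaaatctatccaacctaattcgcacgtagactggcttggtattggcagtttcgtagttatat
GPP2, chrV:280833-280982, minus strand: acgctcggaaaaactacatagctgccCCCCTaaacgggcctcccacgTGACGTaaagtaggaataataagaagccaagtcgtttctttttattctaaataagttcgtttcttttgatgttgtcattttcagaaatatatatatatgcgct
GUT1, chrVIII:38659-38808, minus strand: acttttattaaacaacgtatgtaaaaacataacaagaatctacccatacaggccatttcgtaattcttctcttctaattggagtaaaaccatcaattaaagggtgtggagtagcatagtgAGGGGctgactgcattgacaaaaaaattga

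Over the whole window of 300 bases before the start codon, CCCCT occurred in 7 of the 9 genes searched (all but DAK1 and HOG1) and in 22.2% of 6006 windows of the genome. The Hot1 element occurred in 2 of the 9, STL1 and GPD1, and in 0.766% of all windows. The Sko1 core occurred in 2 of the 9, GPP2 and DAK2, and in 7.21% of all windows. The Ino2-Ino4 core CATGTG occurred in GUT1 alone of the 9, and in 7.11% of all windows. It lies at -41 to -36 of GUT1, in the capitals of this site on the minus strand.
GUT1, chrVIII:38532-38561: tataaaatatacCATGTGgtttgagttgtg
STL1 and GPD1, which share the Hot1 element, had log2 fold changes of -2.70 and -0.52 at day 3, and DAK1, which was called lower, holds 0 of the 4 elements in this window. A match of letters is not a bound site, and bases further upstream were not searched. Whether the elements bear on these differences was not tested.

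The glycerol 3-phosphate dehydrogenases catalyse the first step of synthesis. GPD1 (YDL022W, chromosome IV, 411825 to 413000) encodes the isozyme induced by osmotic stress, and its reading frame shares 257 bases with the opposed frame YDL023C, where reads can be lost or misassigned. In aged cells GPD1 had 11421, 11325 and 11626 normalized counts in tra1Q3 and 19572, 11836 and 21251 in TRA1. The genotypes did not overlap, but replicate 2 of TRA1 lay just above the tra1Q3 libraries. The log2 fold change was -0.52 (standard error 0.21, adjusted p = 0.062 by edgeR) and -0.74 without that replicate. At day 0, GPD1 had 15872, 16469 and 15829 in tra1Q3, against 13589, 12687 and 13012 in TRA1, so that here the tra1Q3 libraries were the higher ones (log2 fold change 0.30, standard error 0.042, adjusted p = 5.9e-06, under the size threshold). The change with age was -0.49 in tra1Q3 and 0.42 in TRA1, and the difference of these changes was -0.91 (standard error 0.23, adjusted p = 0.0040), within the threshold of 1 with all libraries and at -1.12, past it, without replicate 2 of aged TRA1 cells.

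GPD2 (YOL059W, chromosome XV, 217126 to 218448) encodes the isozyme used for redox balance in the absence of oxygen. In aged cells it had 4001, 3903 and 3810 normalized counts in tra1Q3 and 4040, 1843 and 4196 in TRA1. The groups overlapped, and only replicate 2 of TRA1 was far lower (log2 fold change 0.31, standard error 0.29, adjusted p = 0.35; 0.01 without it). At day 0, GPD2 had 8033, 7835 and 7604 in tra1Q3, against 11137, 10975 and 10359 in TRA1 (log2 fold change -0.47, standard error 0.042, adjusted p = 1.7e-08, under the size threshold).

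GPP1 and GPP2 encode the glycerol 3-phosphate phosphatases that release glycerol, GPP1 being the more abundant form in growing cells and GPP2 the one induced by osmotic stress. Their coding sequences are 82.7% identical, yet every 150-base window of both occurs once in the genome. GPP1 (YIL053W, chromosome IX, 255115 to 255867) showed the largest difference among the 10 genes in aged cells, with 1152, 1098 and 1164 normalized counts in tra1Q3 and 13641, 29312 and 10087 in TRA1. All aged TRA1 libraries were far above all aged tra1Q3 libraries, and replicate 2 was the highest. The log2 fold change was -3.85 (standard error 0.40, adjusted p = 1.1e-04), a 14.5-fold lower level, and -3.29 without replicate 2 of TRA1. At day 0, GPP1 had 22255, 21794 and 21204 in tra1Q3 and 24088, 27008 and 24701 in TRA1, groups that did not overlap but lay close together (log2 fold change -0.21, standard error 0.047, adjusted p = 6.0e-04, under the size threshold).

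GPP2 (YER062C, chromosome V, 279930 to 280682, minus strand) was the only one of the 10 genes called lower in tra1Q3 on both days. GPP1, GUT1 and DAK1 were also lower on both days with adjusted p under the threshold, but did not pass the size threshold on both. In aged cells it had 1471, 1281 and 1409 normalized counts in tra1Q3, against 4853, 5391 and 3677 in TRA1 (log2 fold change -1.64, standard error 0.15, adjusted p = 5.5e-05, and -1.53 without replicate 2 of aged TRA1). At day 0 it had 2011, 1931 and 1963 in tra1Q3, against 9097, 9473 and 8776 in TRA1. The log2 fold change there was -2.21 (standard error 0.043, adjusted p = 6.4e-18), a 4.62-fold lower level. Without replicates 2 and 3 of tra1Q3 it was -2.18, a value that rests on the remaining tra1Q3 library alone. The part of transcripts typical of aged cells in the day 0 difference was not tested.

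**Figure D2:**
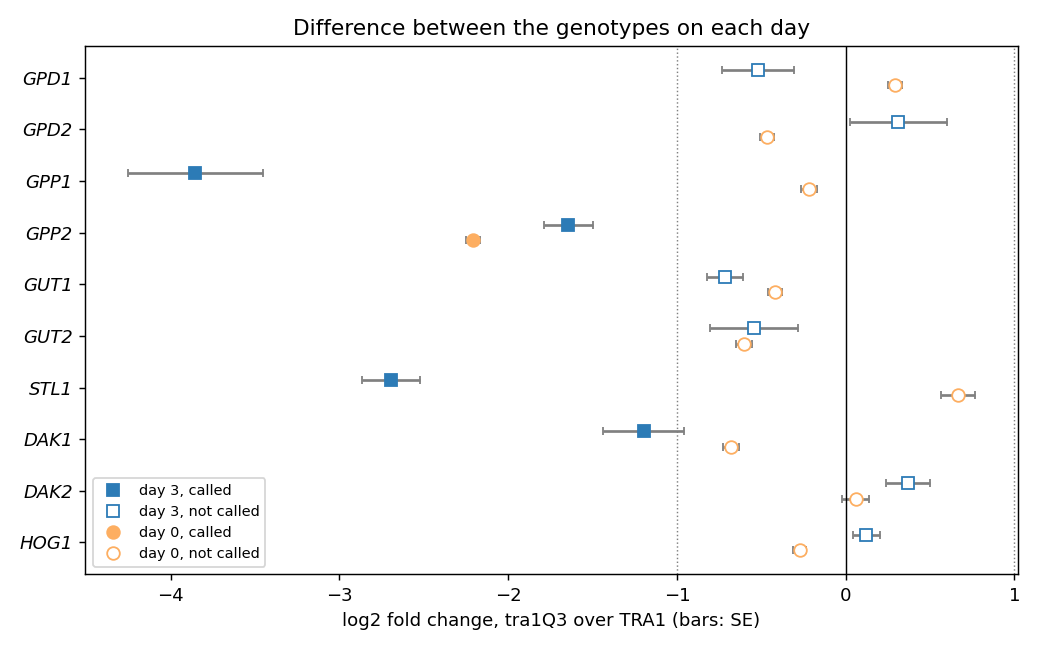
Log2 fold change of each gene, tra1Q3 over TRA1, at day 3 (squares) and day 0 (circles) with standard errors. Filled symbols were called and dotted lines mark the threshold of 1. GPP2 was called lower on both days, and GPP1, STL1 and DAK1 at day 3.

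STL1 (YDR536W, chromosome IV, 1508005 to 1509714) encodes the proton symporter that imports glycerol, a gene known to be repressed by glucose and induced through Hog1 and Hot1. In aged cells it had 734, 767 and 710 normalized counts in tra1Q3, against 5029, 6365 and 3959 in TRA1. No library of one genotype reached the range of the other (log2 fold change -2.70, standard error 0.17, adjusted p = 1.4e-05, a 6.48-fold lower level, and -2.52 without replicate 2 of TRA1). At day 0 the order was the opposite, with 373, 419 and 355 in tra1Q3 and 252, 223 and 248 in TRA1 (log2 fold change 0.67, standard error 0.10, adjusted p = 1.4e-05, under the size threshold). The level of STL1 in tra1Q3 was thus below that in TRA1 after aging and above it before.

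The kinase and the dehydrogenase of glycerol use were higher in aged than in young cells of both genotypes. GUT1 (YHL032C, chromosome VIII, 36379 to 38508, minus strand) encodes glycerol kinase. It had 5141, 5642 and 5091 normalized counts in tra1Q3 and 9900, 9774 and 8250 in TRA1 at day 3, without overlap (log2 fold change -0.72, standard error 0.11, adjusted p = 6.9e-04, under the size threshold). Its level at day 0 was 2052, 2093 and 2085 in tra1Q3 and 2788, 2696 and 2846 in TRA1 (log2 fold change -0.42, standard error 0.039, adjusted p = 2.8e-08, under the size threshold). With library totals in place of TMM normalization the value of GUT1 at day 3 was -1.01, past the threshold.

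GUT2 (YIL155C, chromosome IX, 51759 to 53708, minus strand) encodes the mitochondrial glycerol 3-phosphate dehydrogenase. At day 3 it had 18871, 17150 and 18147 in tra1Q3 and 31865, 17063 and 35556 in TRA1, where replicate 2 of TRA1 fell among the tra1Q3 libraries (log2 fold change -0.54, standard error 0.26, adjusted p = 0.096; -0.81 without that replicate). At day 0 it had 1717, 1934 and 1963 in tra1Q3 and 2899, 2798 and 2821 in TRA1, without overlap (log2 fold change -0.60, standard error 0.047, adjusted p = 2.9e-09, under the size threshold). Replicates 2 and 3 of tra1Q3 at day 0 exceeded replicate 1 by 216 and 246 normalized counts in GUT2. Without these replicates the day 0 value was -0.72.

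The dihydroxyacetone kinases phosphorylate dihydroxyacetone, which is toxic to the cell. DAK1 (YML070W, chromosome XIII, 133475 to 135229), the main isozyme, had 2023, 1982 and 2119 normalized counts in aged tra1Q3 cells and 5463, 3179 and 6372 in aged TRA1 cells. The groups did not overlap, and replicate 2 of TRA1 was again the nearest to tra1Q3 (log2 fold change -1.20, standard error 0.24, adjusted p = 0.0030). DAK1 was -1.44 without replicate 2 of aged TRA1, and without replicate 3 it was -0.98 and no longer called. At day 0, DAK1 had 3542, 3548 and 3388 in tra1Q3, against 5914, 5710 and 5183 in TRA1 (log2 fold change -0.68, standard error 0.046, adjusted p = 4.0e-10, under the size threshold).

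DAK2 (YFL053W, chromosome VI, 23423 to 25198) varied least among the 10 genes, from 310 to 459 normalized counts over the 12 libraries. At day 3 it had 439, 459 and 413 in tra1Q3 and 310, 369 and 408 in TRA1 (log2 fold change 0.37, standard error 0.13, adjusted p = 0.036, under the size threshold). At day 0 it had 454, 436 and 437 in tra1Q3 and 442, 408 and 426 in TRA1, which overlapped (log2 fold change 0.06, standard error 0.081, adjusted p = 0.53).

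HOG1 (YLR113W, chromosome XII, 371620 to 372927) encodes the kinase itself, whose activity is set by phosphorylation, which RNA does not measure. Aged cells of both genotypes overlapped, at 1610, 1481 and 1447 normalized counts in tra1Q3 and 1461, 1464 and 1541 in TRA1 (log2 fold change 0.12, standard error 0.080, adjusted p = 0.21, and -0.17 with library totals). At day 0, HOG1 had 5654, 5550 and 5274 in tra1Q3 and 6792, 6406 and 6731 in TRA1 (log2 fold change -0.27, standard error 0.041, adjusted p = 1.1e-05, under the size threshold).

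Aging itself was then compared within each genotype, day 3 over day 0. These comparisons share libraries with those between the genotypes. Their standard errors rest on 1 estimate of the spread per gene over all 12 libraries, not on that of 1 genotype. For GUT2, the SD was 34.8% of the mean in aged TRA1 and 4.79% in aged tra1Q3. In tra1Q3 cells 2 of the 10 genes were called higher in aged cells, against 22.7% of the 6247 genes tested, and 3 lower, against 23.4%. In TRA1 cells 3 were called higher, against 20.1% of all genes, and 2 lower, against 19.8%. GUT2 rose with age by a log2 fold change of 3.27 in tra1Q3 (standard error 0.22, adjusted p = 3.0e-08 by edgeR) and 3.31 in TRA1 (standard error 0.22, adjusted p = 3.3e-08). GUT1 rose by 1.35 in tra1Q3 (standard error 0.076) and 1.75 in TRA1 (standard error 0.077). HOG1 fell with age in both, with log2 fold changes of -1.86 in tra1Q3 (standard error 0.061) and -2.16 in TRA1 (standard error 0.062).

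STL1 rose with age in TRA1 cells by a log2 fold change of 4.41 (standard error 0.16, adjusted p = 1.9e-10), a 21.2-fold higher level. Its value in tra1Q3 was 0.95 (standard error 0.15, adjusted p = 6.9e-05), just under the size threshold. GPP1 fell with age in tra1Q3 cells, with a log2 fold change of -4.26 (standard error 0.33, adjusted p = 1.1e-07), a 19.1-fold lower level. Its value in TRA1 was -0.52 (standard error 0.28, adjusted p = 0.11), and -1.08 and called without replicate 2 of aged TRA1. GPD2 had a log2 fold change of -1.69 in TRA1 (standard error 0.23) and of -1.003 in tra1Q3 (standard error 0.22), where it lay on the threshold and lost its call in 12 of 21 alternatives. GPP2 had values of -0.50 in tra1Q3 (standard error 0.12) and -0.97 in TRA1 (standard error 0.11), the TRA1 value being -1.08 and called without replicate 2 of aged TRA1. DAK1 had values of -0.77 in tra1Q3 and -0.16 in TRA1, and DAK2 had -0.02 in tra1Q3 and -0.23 in TRA1, and neither gene was called. The sign of DAK1 in TRA1 (0.09 without replicate 2 of aged TRA1) and of DAK2 in tra1Q3 turned in some alternatives.

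**Figure D3:**
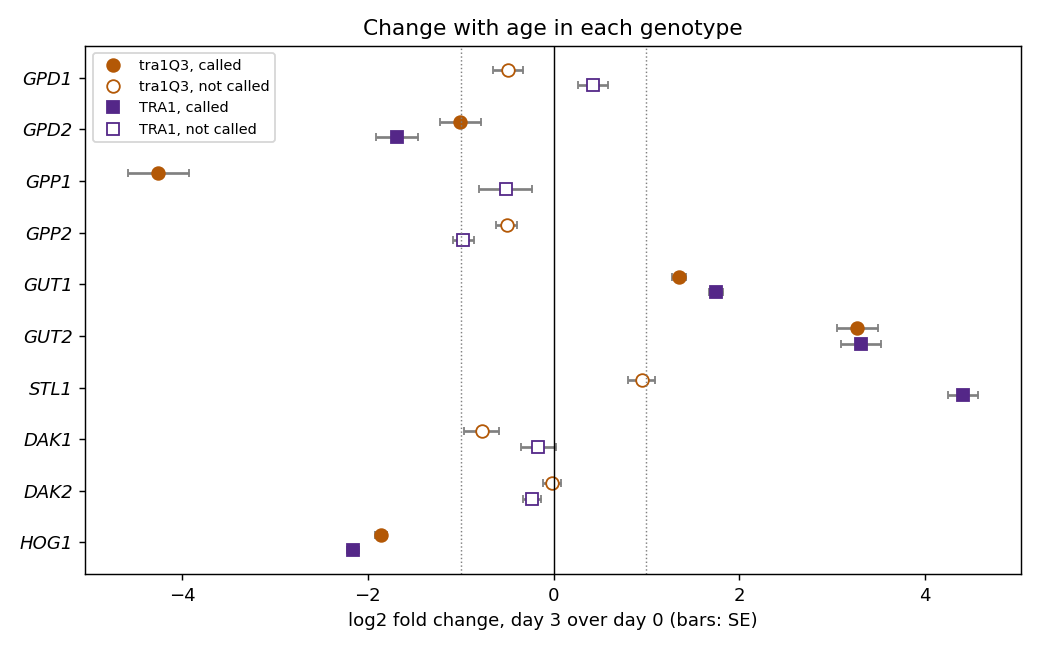
Log2 fold change of each gene with age, day 3 over day 0, in tra1Q3 (circles) and TRA1 (squares) with standard errors. Filled symbols were called and dotted lines mark the threshold of 1. GUT1 and GUT2 lie to the right and HOG1 to the left in both genotypes, while GPP1 (-4.26 in tra1Q3, -0.52 in TRA1) and STL1 (0.95 in tra1Q3, 4.41 in TRA1) lie far apart.

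Whether the change with age differed between the genotypes was tested by the interaction term, the age change in tra1Q3 minus that in TRA1. Here 2 of the 10 genes were called lower, against 17.9% of the 6247 genes tested, and 0 were called higher, against 13.6%. The interaction of GPP1 was -3.74 on the log2 scale (standard error 0.42, adjusted p = 8.8e-06 by edgeR) and -3.16 without replicate 2 of aged TRA1. That of STL1 was -3.46 (standard error 0.21, adjusted p = 6.9e-08) and -3.26 without the same replicate. The values of the remaining genes were 0.68 for GPD2, 0.47 for GPP2, 0.30 for HOG1, 0.21 for DAK2, -0.04 for GUT2, -0.40 for GUT1, -0.61 for DAK1 and the -0.91 of GPD1 given above. GUT2, the gene with the largest rise in tra1Q3 among the 10, thus had an interaction of -0.04 (standard error 0.28, adjusted p = 0.91), and its sign turned to 0.09 without replicates 2 and 3 of tra1Q3 at day 0.

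Paired isozymes allowed a comparison within each library, as the log2 ratio of counts per base of coding sequence, which does not depend on library scaling. GPP1 over GPP2 was -0.35, -0.22 and -0.28 in aged tra1Q3 cells, and 1.49, 2.44 and 1.46 in aged TRA1 cells. GPP2 was thus the more abundant transcript in all 3 aged tra1Q3 libraries and GPP1 in the other 9 libraries. At day 0 the ratio was 3.47, 3.50 and 3.43 in tra1Q3, against 1.41, 1.51 and 1.49 in TRA1. The difference between the genotypes was -2.08 at day 3 and 1.996 at day 0, of opposite sign.

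GPD1 over GPD2 averaged 1.72 ± 0.050 in tra1Q3 and 2.60 ± 0.22 in TRA1 at day 3 (SD, n = 3 each). At day 0 it averaged 1.21 ± 0.048 in tra1Q3 and 0.45 ± 0.061 in TRA1. The difference was -0.88 at day 3 and 0.76 at day 0, so that this pair also turned its sign. DAK1 over DAK2 averaged 2.24 ± 0.13 in tra1Q3 and 3.75 ± 0.55 in TRA1 at day 3, and 3.00 ± 0.038 in tra1Q3 and 3.73 ± 0.10 in TRA1 at day 0, lower in tra1Q3 on both days. In each of the 6 comparisons the genotypes did not overlap. The two-sided exact permutation p was 0.1 in each (adjusted 0.1 over the 6), which is the smallest that 3 libraries against 3 can give. How often the ratios of other gene pairs lie apart was not counted. By edgeR, 4209 of 6126 genes at day 0 and 4436 of 6208 at day 3 had an adjusted p of at most 0.05.

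**Figure D4:**
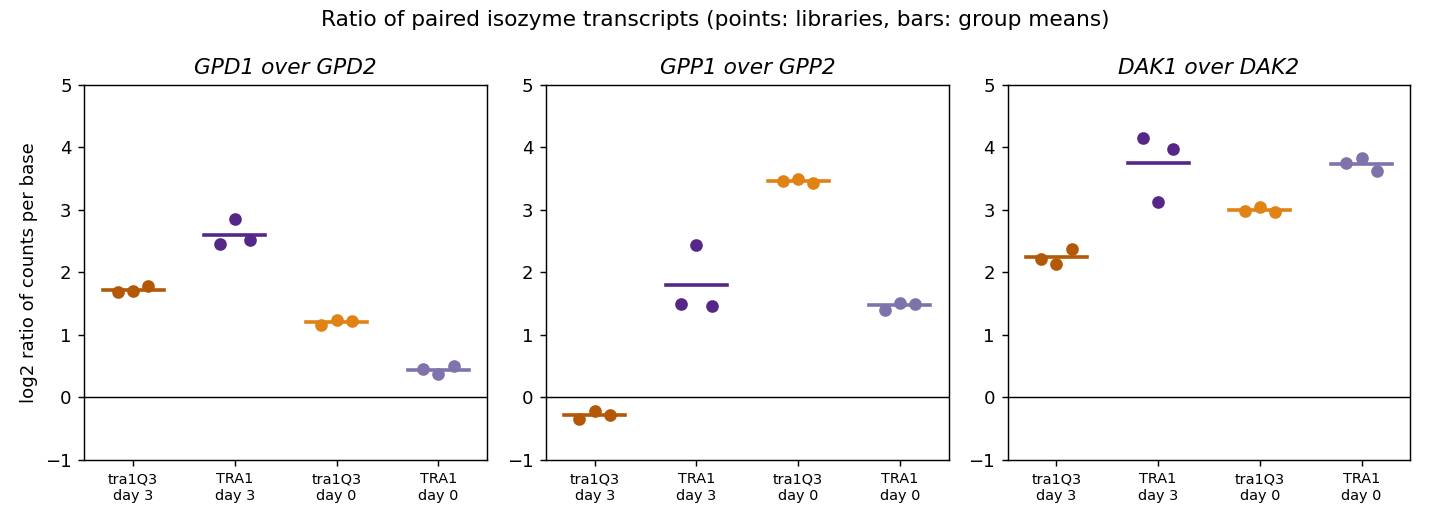
Log2 ratio of counts per base of coding sequence for the paired isozymes in each library (points) with group means (bars). The line at 0 marks equal levels. Aged tra1Q3 cells are the only group in which GPP1 over GPP2 lies below 0.

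Related genes were described by lists drawn up from general knowledge of the pathway. For every list below, the shares over all genes tested were 16.4% called higher and 15.6% called lower at day 3. At day 0 these shares were 3.31% and 2.76%. Of 8 other glycerol genes, 4 were called higher and 1 lower in tra1Q3 at day 3. The largest increases were in GCY1, a glycerol dehydrogenase (log2 fold change 2.86), RGC1, an activator of the glycerol channel (1.70), and FPS1, the channel through which glycerol leaves the cell (1.37). FPS1 had 7978, 7868 and 8088 normalized counts in aged tra1Q3 cells, against 3341, 3179 and 3385 in aged TRA1 cells. The export channel was thus higher, and the importer STL1 lower, in aged tra1Q3 cells. The 1 gene of the list called lower was TPI1 (-1.16). Those not called were ASK10 (-0.73), YPR1 (-0.53) and GUP2 (-0.42). At day 0, 0 of these 8 genes were called in either direction.

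Of 19 genes of the HOG signalling pathway, 1 was called higher at day 3 (RCK2, a kinase downstream of Hog1, 1.17) and 1 lower (HKR1, a membrane sensor, -1.99), and the median of the list was -0.0028. At day 0, 0 of the 19 were called. Of 6 transcription factors of the pathway, 2 were called higher at day 3 and 0 lower. They were SMP1 (1.62) and HOT1 (1.29). HOT1, which encodes a factor known to activate STL1, had 2721, 3073 and 2927 normalized counts in aged tra1Q3 cells and 1233, 1405 and 1197 in aged TRA1 cells, a direction opposite to that of STL1. At day 0 both genes were higher in tra1Q3, HOT1 by 0.44 and STL1 by 0.67, each under the size threshold. Whether the level of HOT1 bears on STL1 was not tested.

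Of 12 genes known to be induced by osmotic stress, 3 were called higher and 6 lower in tra1Q3 at day 3, with a median log2 fold change of -0.99. The largest were the decreases of SIP18 (-5.73) and GRE1 (-5.58), both linked to desiccation, and the increase of HOR7 (3.75). At day 0, 3 of the 12 were called higher (ENA1, GRE1 and SIP18) and 1 lower (ALD3). The day 0 values of SIP18 in tra1Q3 were 61.9 in replicate 1 and 1018 and 876 in replicates 2 and 3, the libraries with more transcripts typical of aged cells, and 117 to 185 in TRA1. SIP18 and GRE1 themselves meet the rule by which those transcripts were chosen, so their values add nothing separate about these libraries.

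Of 7 regulators of GUT1 and GUT2, 3 were called higher in tra1Q3 at day 3 (INO4, 1.80; ADR1, 1.19; OPI1, 1.18) and 0 lower, whereas GUT1 and GUT2 had values of -0.72 and -0.54. ADR1 and INO4 encode activators, whereas OPI1 encodes a repressor of Ino2-Ino4 targets. At day 0, INO2 was called lower (-1.08) and 0 were called higher. Among the NADH dehydrogenases of the mitochondrial inner membrane, which pass electrons to the same quinone pool as Gut2, NDE2 was called lower (-3.27), NDI1 higher (1.21) and NDE1 neither at day 3.

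**Figure D5:**
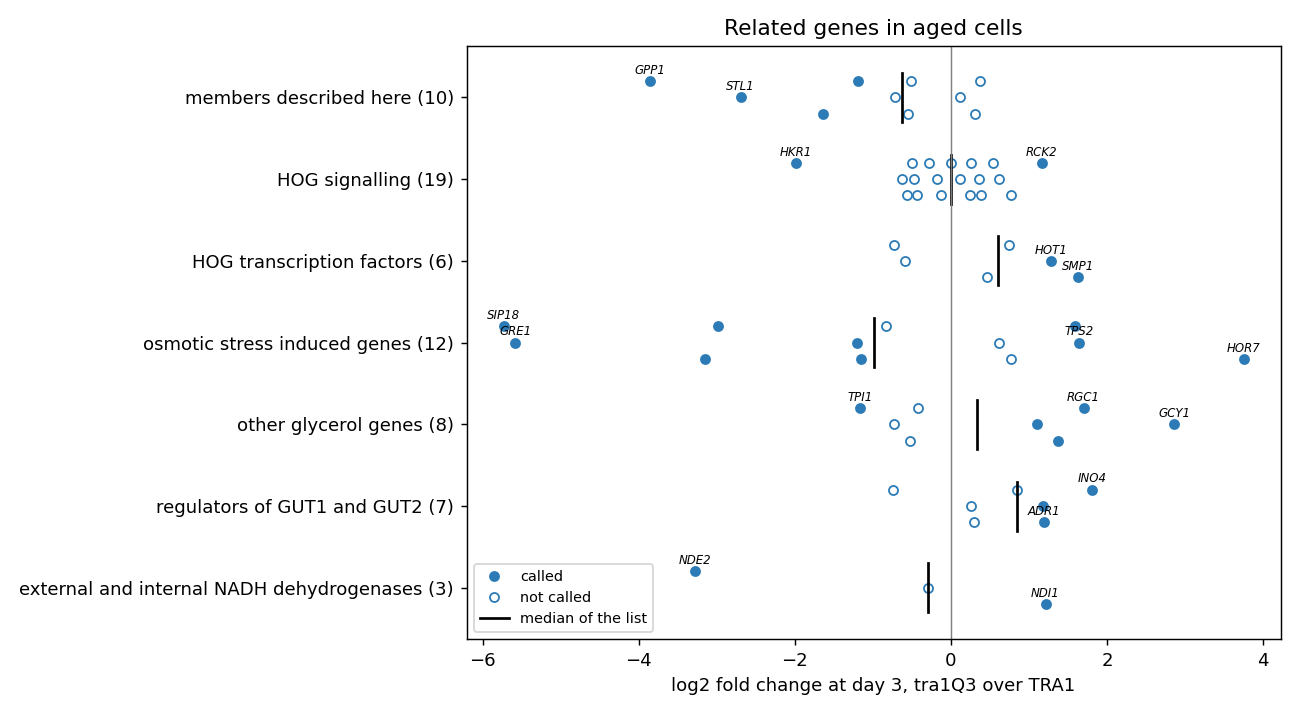
Log2 fold change at day 3 (tra1Q3 over TRA1) of the 10 genes and of 6 lists of related genes, with the number of genes in each list. Filled points were called, black bars are medians, and the genes with the largest called changes are named. The medians run from -0.99 for the osmotic stress induced genes to 0.84 for the regulators of GUT1 and GUT2.

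The genes whose levels were most like those of each member were found by Pearson's r of log2 CPM (library-scaled counts) over the 12 libraries, among 5706 genes, as a description. The libraries fall into 4 groups and share age and depth, so that many genes reach a high r. HOG1 was most like PTC2, a type 2C protein phosphatase (r = 0.999). GUT2 was most like GND2, a 6-phosphogluconate dehydrogenase (0.998), STL1 like YAT2, a carnitine acetyltransferase (0.997), and GUT1 like SIS2 (0.997). GPP1 was most like CDC123, an assembly factor of translation initiation factor eIF2 (0.996). GPD2 was most like ARP2, a subunit of the actin nucleating complex (0.987), DAK1 like YPF1 (0.978) and GPP2 like MHF1 (0.977). GPD1 was most like WSC3, a cell wall sensor (0.961), and DAK2 like MSB1 (0.877). Among the 10 genes themselves, GUT1 and GUT2 had an r of 0.953 and GUT2 and HOG1 one of -0.956, whereas GPD1 and GPD2 had 0.133.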

How the data were processed

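Libraries were made from poly dT-selected RNA, and both ends were read. The authors trimmed reads with Trimmomatic, aligned them with STAR 2.5.4b to S288C R64-2-1, kept unique alignments and deposited raw counts per coding sequence from featureCounts 1.6.0, whose program line sets no strand option. Reads of the antisense strand and of overlapping genes therefore cannot be told apart. Counts of pairs and of reads that had lost their mate (12.5% to 18.1% of a library) were added. Totals ran from 20662125 to 28079682, and 1 entry without a gene name (0.0851% of counts) was left out.

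Genes that reached 10 counts in 3 or more libraries were fitted with edgeR 4.0.16 (TMM, glmQLFit, glmQLFTest, R 4.3.3), on the 6 libraries of a day for the genotypes and on all 12 for age and the interaction. Benjamini-Hochberg adjustment ran over all genes. Normalized counts are counts divided by the effective library size and scaled to its mean. Ratios of isozymes had 0.5 added to each count and were compared by exact permutation (scipy 1.17.1). Log2 CPM values had a prior count of 2. Replicates are called biological in the study, and p-values measure only the spread between these samples. The members, the lists and the tests were chosen with earlier results of these data known. All 10 members were described in each comparison, and from each list at most 3 called genes with the largest change were named, with further genes only to complete a count of 5 or fewer. Of 6691 genes, 6008 matched RefSeq by locus tag, 6006 with the same start.

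In data simulated from the real means with 200 changed genes, edgeR recovered 200 at day 0 (6092 genes), 199 at day 3 (6156 genes) and 199 for the interaction (6216 genes), with 1, 1 and 3 false calls. The changes were planted well past the threshold in well-counted genes, with the same spread in all groups. Recovery of changes near the threshold, or with a deviating library, was not tested. The alternatives were DESeq2 1.42.0, other scalings, filters and thresholds, read pairs alone, a replicate block, 1 fit of all libraries and leaving out libraries. Upstream windows were searched for 9 members, and that of the remaining one is not reported here. Growth, viability and imaging data were not analysed here.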

Additional observations from a re-analysis of the deposited data

Results flagged for a closer look

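The change with age of GPP1, the glycerol 3-phosphate phosphatase, differed between the genotypes by -3.74 on the log2 scale (tra1Q3 minus TRA1), by the test of the interaction. That of STL1, the glycerol importer, differed by -3.46 by the same test. Both values stayed lower and past the threshold in every alternative run, including the removal of each library in turn, over which GPP1 ran from -4.02 to -3.16 and STL1 from -3.62 to -3.26.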

How the results depend on the processing

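Over 50 values of the members, 902 of 940 alternatives kept the direction and the call, 13 lost the call, 9 gained it and 16 turned the sign. The number of members called moved with the size threshold. With an adjusted p alone it was 9 of 10 for the genotypes at day 0, 9 for age in tra1Q3, 8 for age in TRA1 and 6 for the interaction. Among all genes, 4209 of 6126 passed at day 0. Of 6247 genes, 5186 passed for age in tra1Q3, 5079 for age in TRA1 and 4290 for the interaction. With a log2 fold change over 2 it was 2 for the genotypes at day 3, 2 for age in tra1Q3 and 3 for age in TRA1. Among all genes this threshold gave 314 higher and 187 lower of 6208 at day 3. For age it gave 516 higher and 597 lower of 6247 in tra1Q3, and 485 higher and 471 lower in TRA1. Leaving out each library in turn gave 1 to 1 at day 0, 3 to 4 at day 3, 4 to 6 for age in tra1Q3, 5 to 7 for age in TRA1 and 2 to 3 for the interaction.

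The sign turned only for values that were not called. With library totals DAK2 at day 0 was -0.026 and HOG1 at day 3 -0.17. DAK2 with age in tra1Q3 was 0.0165 with DESeq2, 0.0171 with its size factors alone, 0.046 with library totals, 0.098 with upper quartile scaling and 0.0030 with at least 50 counts, and ran from -0.0512 to 0.0242 over the libraries left out. DAK1 with age in TRA1 ran from -0.37 to 0.0907. The interaction of GUT2 was 0.0853 without replicates 2 and 3 of tra1Q3 at day 0, and ran from -0.29 to 0.16 over the libraries left out. The cause was not tested. Library totals moved the median of all genes at day 3 to -0.31, with 702 genes called higher and 1463 lower, against 1018 and 968. With age in TRA1 they gave 1551 higher and 1039 lower, against 1253 and 1237.

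Libraries with the same number did not deviate together (correlations of -0.11 to 0.0042), so that no pairing by number was seen. Noise of single libraries also gives low correlations, so this check cannot tell whether same-numbered libraries came from the same culture. With the replicate block the members called numbered 4 at day 3, 1 at day 0, 4 for age in tra1Q3, 5 for age in TRA1 and 2 for the interaction, and DAK2 with age in tra1Q3 was 0.0413.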
